A study of Homo sapiens with 8 samples.

Results

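Replication-dependent histone genes encode the bulk of the histones that package newly copied DNA. The 67 genes described here are the rows of the count table whose identifiers map to a protein-coding symbol of the families H1-1 to H1-6, H2AC, H2BC, H3C and H4C, out of 60659 genes. They comprise 6 linker histone H1 genes, 15 H2A genes, 18 H2B genes, 13 H3 genes and 15 H4 genes. The large cluster at 6p22 holds 55 of them, 1q21 holds 9, 1q42 holds 2, and H4C16 lies on chromosome 12. H2AC18 and H2AC19 are not analysed here.

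These genes are transcribed mainly in S phase, when DNA replicates. Their mRNAs lack introns and a poly(A) tail and end instead just past a conserved stem-loop, which the stem-loop binding protein SLBP holds during processing, export and decay. NPAT, a substrate of cyclin E and CDK2, gathers the transcription machinery at these clusters, and the U7 snRNP with LSM10 and LSM11 directs the cut of the 3′ end.

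RNA was sequenced from SK-N-SH, an established human neuroblastoma cell line, in 4 groups of 2 libraries, all treated with 10 μM all-trans retinoic acid (ATRA) for 24 h. Parental cells with doxycycline (Dox) were set against a stably transduced, G418-selected line that carries Dox-inducible FLAG ZMYND8, also with Dox. KD control cells were set against ZMYND8 KD cells, and the lentiviral shRNA method for such a knockdown is described without the clones used for these libraries. Total RNA depleted of rRNA was primed with random hexamers, so that RNAs without a poly(A) tail were counted too.

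Total counts ranged from 38316523 to 56256979 per library. ZMYND8 stood at 72.7 and 69.9 CPM, counts scaled by library size, in parental cells and 4102 and 4155 CPM in the overexpressing line, against 59.5 and 61 CPM in KD control and 31.3 and 31.5 CPM in ZMYND8 KD cells. The scaling factors are TMM factors over the 8 libraries. Of the adrenergic neuroblastoma markers, the tyrosine hydroxylase gene TH was at most 0.0929 CPM in any library, whereas the transcription factor PHOX2A reached at least 88.7 CPM in each. The labels call the libraries of a group biological replicates but do not say how they were separated, so the p-values measure the spread between these libraries. In bulk RNA, fewer cells in S phase and less histone mRNA per cell cannot be told apart.

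The 3′ stem-loop was searched for in the reference genome, because it is the element by which these mRNAs are processed. A perfect stem of 6 base pairs that starts with GG, around a loop of 4 bases that starts with TT, was found within 150 bases of the stop codon in 62 of the 67 genes, beginning at base 23 to 63 after it. No such match was found for H2AC11, H2AC15, H2BC10, H3C6 and H4C13. The following GRCh38 sequences of 26 bases are shown for 1 gene of each class, with the stem-loop of 16 bases in capitals; H1-5 lies at chr6:27866792-27866817 on the minus strand, H2AC8 at chr6:26217412-26217437 on the plus strand, H2BC4 at chr6:26123467-26123492 on the minus strand, H3C1 at chr6:26020927-26020952 on the plus strand and H4C4 at chr6:26188710-26188735 on the minus strand.
H1-5: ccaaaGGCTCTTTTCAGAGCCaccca
H2AC8: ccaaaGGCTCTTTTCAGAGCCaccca
H2BC4: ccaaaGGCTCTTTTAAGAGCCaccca
H3C1: gcaaaGGCTCTTTTCAGAGCCaccac
H4C4: ccaacGGCCCTTTTCAGGGCCaccta

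The core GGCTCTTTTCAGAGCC was held by 38 genes of the classes H1, H2A, H2B and H3, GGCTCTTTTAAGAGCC by 9 and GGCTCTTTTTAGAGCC by 1. All 14 H4 genes with a match carried the exchanged base pair, as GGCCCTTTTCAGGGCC in 10 genes and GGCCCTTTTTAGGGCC in 4.

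Promoters differed by class as well. RefSeq promoters on GRCh38.p14, windows of equal length around the start, were matched for 62 of the genes, which have 66 of them. CCAAT on either strand was present in 84.8% of these, against 34.6% of all 34961 promoters. It was present in 100% of the promoters of the H1, H2A, H2B and H3 classes, but in 3 of 13 H4 promoters. TATAAA was present in 65.2% against 11.5% of all promoters. The octamer ATGCAAAT, a binding sequence of OCT1, was found in 11 of 14 H2A promoters and 15 of 20 H2B promoters, in 1 of 13 H3 promoters, and in 0 of 6 H1 and 0 of 13 H4 promoters, against 1.77% of all promoters. The 1 H3 promoter with it is a window of H3C4 that is also the window of H2AC7, so it was counted in both classes. Neighbouring H2A and H2B genes can also share a site, as H2AC7 with H2BC7 and H2AC1 with H2BC1. The counts are therefore not all of separate sites. The 120 bases before the start are shown for 1 gene with each arrangement, with these motifs in capitals none of which overlap in these windows; H3C1 is at chr6:26020331-26020450 on the plus strand, H2AC4 at chr6:26033619-26033738 on the minus strand and H4C4 at chr6:26189113-26189232 on the minus strand.
H3C1: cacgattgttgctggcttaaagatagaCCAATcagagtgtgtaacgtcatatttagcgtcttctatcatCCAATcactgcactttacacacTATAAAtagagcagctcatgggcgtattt
H2AC4: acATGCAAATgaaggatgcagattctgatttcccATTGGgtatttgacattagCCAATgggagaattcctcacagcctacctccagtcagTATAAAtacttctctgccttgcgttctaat
H4C4: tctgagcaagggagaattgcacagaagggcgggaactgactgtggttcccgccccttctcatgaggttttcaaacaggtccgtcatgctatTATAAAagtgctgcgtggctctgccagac

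Summed over all 67 genes, histone RNA was 2989 and 2937 CPM in parental libraries and 4581 and 4179 CPM in the overexpressing libraries, a ratio of the means of 1.48. It was 4209 and 4315 CPM in KD control libraries and 3650 and 3900 CPM in ZMYND8 KD libraries, a ratio of 0.886. In each class both overexpressing libraries lay above both parental libraries, and both ZMYND8 KD libraries lay below both KD control libraries. The ratio of overexpressing to parental means was 1.62 for H3, 1.6 for H4, 1.52 for H1, 1.39 for H2A and 1.36 for H2B. The ratio of ZMYND8 KD to KD control means was 0.828 for H3, 0.84 for H1, 0.86 for H2A, 0.906 for H2B and 0.951 for H4.

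**Figure D1:**
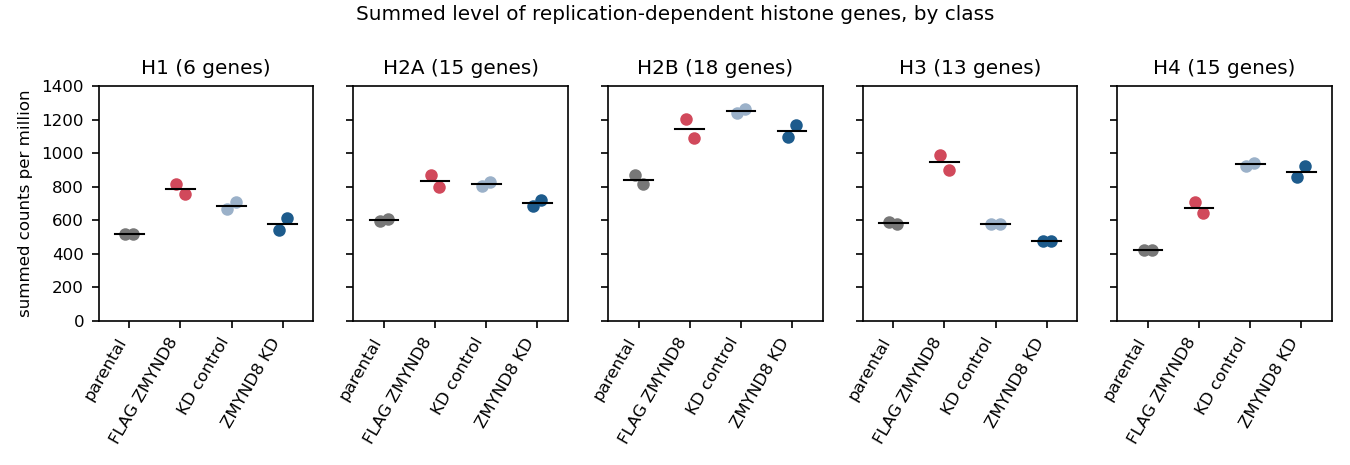
Summed CPM of each histone class in the 8 libraries; points are libraries and black lines are group means of 2 libraries. H4 reached 421.2 CPM in parental and 933.3 CPM in KD control cells on average, whereas H3 was 584.1 and 576.2 CPM.

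The KD control and parental cells, which belong to different experiments, already differed in their histone makeup. The mean H4 sum was 2.22 times higher in KD control than in parental cells, while the H3 sum was 0.986 times as high. H4C5 was 7.36 times and H3C12 was 6.07 times as high in KD control as in parental cells, whereas H2BC17 was 0.34 times as high. Cells, handling and sequencing of the experiments cannot be told apart in these values, so each comparison below uses its own controls.

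Levels between genes are compared per kilobase of exon, as CPM per kb averaged over the 8 libraries. H4C4 (278.6 CPM per kb), H3C2 (276.3), H4C3 (276.2) and H1-5 (269.4) were the highest, followed by H1-2 (242.8) and H2AC8 (209.7). The order differed between groups: H3C2 and H1-5 led in the overexpressing cells at 370.5 ± 25.9 and 364.3 ± 31.3 CPM per kb (SD, n = 2), whereas H4C3 and H4C4 led in KD control at 410.4 ± 6.84 and 355.1 ± 7.96. H3C2 and H1-5 in the overexpressing cells did not differ beyond their spread. The 3 leading genes held 85.6% of the H1 level in parental cells but 44.5% of H2A, 47.4% of H2B, 56.8% of H3 and 59.3% of H4. These shares depend on the number of genes in a class, and only 4 H1 genes were above 0.5 CPM per kb. The order and the shares also depend on the annotated exon length, which for some genes runs past the stem-loop. In KD control H4C5, with 1487 bases of exon, stood at 184.9 CPM but 124.3 CPM per kb. H4C3, with 405 bases, stood there at 166.2 CPM and 410.4 CPM per kb.

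**Figure D2:**
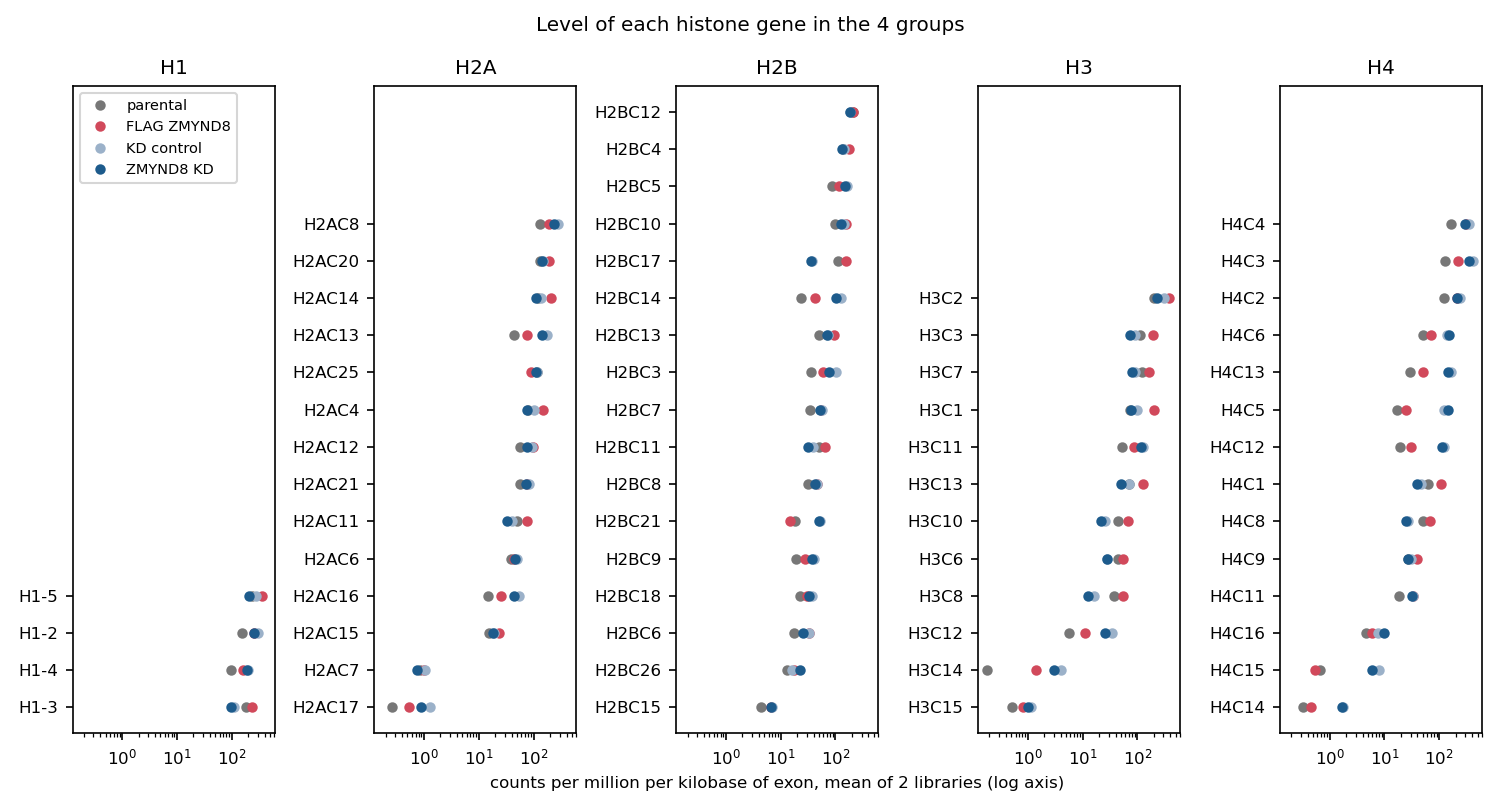
CPM per kb of exon (log axis) of each histone gene above 0.5 CPM per kb; points are means of the 2 libraries of a group. Within a class the genes spanned from under 1 to over 100 CPM per kb in H2A and H3, and H1-5, H2AC8, H2BC12, H3C2 and H4C4 topped their classes over the 8 libraries.

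A group of genes had few or no counts. H1-1, H2AC1, H2BC1, H3C4 and H4C7 had 0 to 6 counts in each library and were tested in neither comparison. H3C4 shares 96.6% of its exon bases with another gene on the same strand, so its counts may not give its level. H1-6, the testis linker histone, had 5 to 31 counts. It was tested under knockdown and in the difference of effects, but not under overexpression. H2BC1 and H2AC1 are also known as genes of the testis.

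Overexpression of ZMYND8 was compared with parental cells to ask how histone genes respond to a gain of the chromatin reader. Of 61 members tested, 54 rose and 2 fell at an adjusted p below 0.05 (edgeR quasi-likelihood test, Benjamini-Hochberg over all 20835 genes tested), while 5 did not pass. Over all genes tested, 31.7% rose and 29.1% fell by the same rule. The median log2 fold change of the members was 0.63 (quartiles 0.45 and 0.8), against 0.03 over all genes (quartiles -0.35 and 0.58), so the shift was common to most members and moderate in size.

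When a call also had to reach 1 in absolute log2 fold change, with a mean normalized count above 20, 2 members were called higher and 0 called lower, against 11.8% and 6.84% of all genes tested; by DESeq2, 2 were called higher and 0 lower as well. At an unadjusted p below 0.05 the same size rule gave 2 members. The called members were H3C1 and H3C14. Their number was 5 without parental replicate 1, without ZMYND8 overexpression replicate 2 and with upper quartile scaling.

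All 12 H3 genes tested rose. H3C1, one of the genes for canonical H3, was at 36.3 and 39.7 CPM in parental and 105.4 and 97.7 CPM in overexpressing libraries. This is a log2 fold change of 1.43 ± 0.0634 (SE, adjusted p = 1.53e-08), and 0% of its 31-base sequences occur elsewhere in the genome. H3C12 rose by 0.98 ± 0.119 on the log2 scale (adjusted p = 4.07e-05) from 4.71 and 5.19 to 10.3 and 9.13 CPM, and is 1 of 6 members that share at least 20% of their exon bases with another gene. H3C2, the H3 gene with the highest level per kb, rose from 107.6 and 96.4 to 198.7 and 180 CPM. H3C3 and H3C7 rose by 0.80 and 0.47 on the log2 scale.

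H3C14, at 1q21, had the largest fitted change of all members but rested on 1 library. It stood at 0.259 and 0.348 CPM in parental cells and at 0.725 and 3.89 CPM in overexpressing cells, and its log2 fold change of 2.88 ± 0.691 (adjusted p = 0.00428) was 1.25 without ZMYND8 overexpression replicate 2. All of its 31-base sequences, 100%, occur elsewhere in the genome, as do those of its copy H3C15 and of H4C14 and H4C15, so reads of these genes cannot be assigned with certainty.

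Of 14 H4 genes tested, 12 rose and 0 fell. H4C4, which has no CCAAT in the bases shown above, stood at 66.7 and 63.3 CPM in parental and 129.3 and 117.3 CPM in overexpressing libraries (log2 fold change 0.93 ± 0.0596, adjusted p = 2.58e-07). H4C3 and H4C2 rose by 0.84 and 0.81 on the log2 scale, close to H4C4. The pair that did not pass were H4C14 and H4C15, at 1q21.

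All 4 H1 genes tested rose. H1-5 went from 189.4 and 181.4 to 308.0 and 272.7 CPM (log2 fold change 0.66 ± 0.0625, adjusted p = 5.92e-06). H1-2 and H1-4 rose by 0.73 and 0.78, and H1-3 by 0.35, on the log2 scale. The linker histones of the 6p22 cluster thus moved by fold changes between 1.27 and 1.71.

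Of 14 H2A genes tested, 11 rose and 1 fell. H2AC4, whose promoter is shown above, rose by 0.90 on the log2 scale, from 41.3 and 42.7 to 80.5 and 75.6 CPM. H2AC14 rose by 0.80 ± 0.0735 (adjusted p = 4.49e-06) and H2AC8 by 0.61 on the log2 scale, from 65.8 and 65.1 to 102.3 and 95.8 CPM. Of the 31-base sequences of H2AC14, 68.8% occur elsewhere. H2AC20, at 1q21, rose by 0.53, and H2AC7 and H2AC17 did not pass. H2AC7 and H2AC17 share 85.3% and 71% of their exon bases with another gene on the same strand, so their counts may not give their levels. H2AC25, at 1q42 (chr1:228456979-228457873, minus strand), fell by 0.37 ± 0.0579 (adjusted p = 0.000288), from 102.0 and 106.0 to 83.9 and 76.4 CPM.

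Of 17 H2B genes tested, 15 rose and 1 fell. H2BC12, the H2B gene with the highest level per kb, was at 108.5 and 97.8 CPM in parental and 108.2 and 98.4 CPM in overexpressing libraries. Its log2 fold change was 0.01 ± 0.0645 (adjusted p = 0.875), and 71% of its 31-base sequences occur elsewhere. H2BC4 and H2BC5 rose by 0.37 and 0.41 on the log2 scale. H2BC21, at 1q21, fell from 42.1 and 38.1 to 32.8 and 31.6 CPM (log2 fold change -0.31 ± 0.0637, adjusted p = 0.00183).

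Knockdown of ZMYND8 was compared with KD control cells to ask for the response to its loss. Of 62 members tested, 26 fell and 3 rose at an adjusted p below 0.05 (edgeR, Benjamini-Hochberg over 19789 genes), and 33 did not pass. Over all genes tested, 10.8% fell and 13.4% rose. The median log2 fold change of the members was -0.19 (quartiles -0.32 and -0.09), against -0.01 over all genes (quartiles -0.22 and 0.18). Of the 62 members, 58 had a fold change below 0 and 4 above it. The count of members that fell was 14 without KD control replicate 2 and 16 with no filter on low counts.

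With the size rule, 0 members were called in either direction by edgeR or by DESeq2, against 1.36% of all genes called higher and 0.596% called lower, and 0 met it at an unadjusted p below 0.05. The changes were thus below the threshold of size, with the largest decrease that passed at 0.705 times the control.

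That decrease was in H3C13, at 1q21, which went from 34.8 and 31.1 CPM in KD control to 24.7 and 21.7 CPM in ZMYND8 KD libraries (log2 fold change -0.50 ± 0.0836, adjusted p = 0.00154). Of its 31-base sequences, 80.6% occur elsewhere. H2AC4 fell by 0.44 ± 0.0584 on the log2 scale (adjusted p = 0.00038), from 53.4 and 53.8 to 37.9 and 40.9 CPM. H3C12 fell by 0.43, and H3C2 by 0.40, from 155.0 and 156.7 to 116.2 and 119.0 CPM. H3C1, the largest increase under overexpression that did not rest on 1 library, fell by 0.36 (adjusted p = 0.000974), from 50.7 and 50.9 to 40 and 39.0 CPM.

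By class, 7 of 12 H3 genes, 8 of 14 H2A genes, 6 of 17 H2B genes, 3 of 14 H4 genes and 2 of 5 H1 genes fell. H1-5 fell by 0.39 and H1-2 by 0.27 on the log2 scale, whereas H1-4 was at -0.08 (adjusted p = 0.401). H4C4, H4C3 and H4C2 fell by 0.28, 0.24 and 0.21. H2AC14 fell by 0.29, H2AC8 by 0.21, H3C3 by 0.27 and H2BC4 by 0.15. The values for H2AC20, H2BC12, H2BC5 and H3C7 were -0.07, -0.02, -0.13 and -0.17, and none of these passed. Of the calls named here, those of H2AC8, H2AC14, H2BC4, H1-2, H4C2 and H4C3 did not hold without KD control replicate 2, those of H2BC4, H3C3 and H4C2 without KD control replicate 1, those of H2AC8, H2BC4 and H4C2 without ZMYND8 KD replicate 1, and that of H2BC4 without ZMYND8 KD replicate 2.

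The 3 genes that rose were H2BC26, H4C16 and H4C5. H2BC26, at 1q42, stood at 38.9 and 37.3 CPM in KD control and at 52.8 CPM in both ZMYND8 KD libraries (log2 fold change 0.47 ± 0.0555, adjusted p = 0.000174). H4C16 on chromosome 12 rose by 0.36 and H4C5 by 0.25 on the log2 scale, although the adjusted p of H4C5 was 0.0615 without KD control replicate 1. Each of these 3 genes has a gene model that runs well past the stem-loop.

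**Figure D3:**
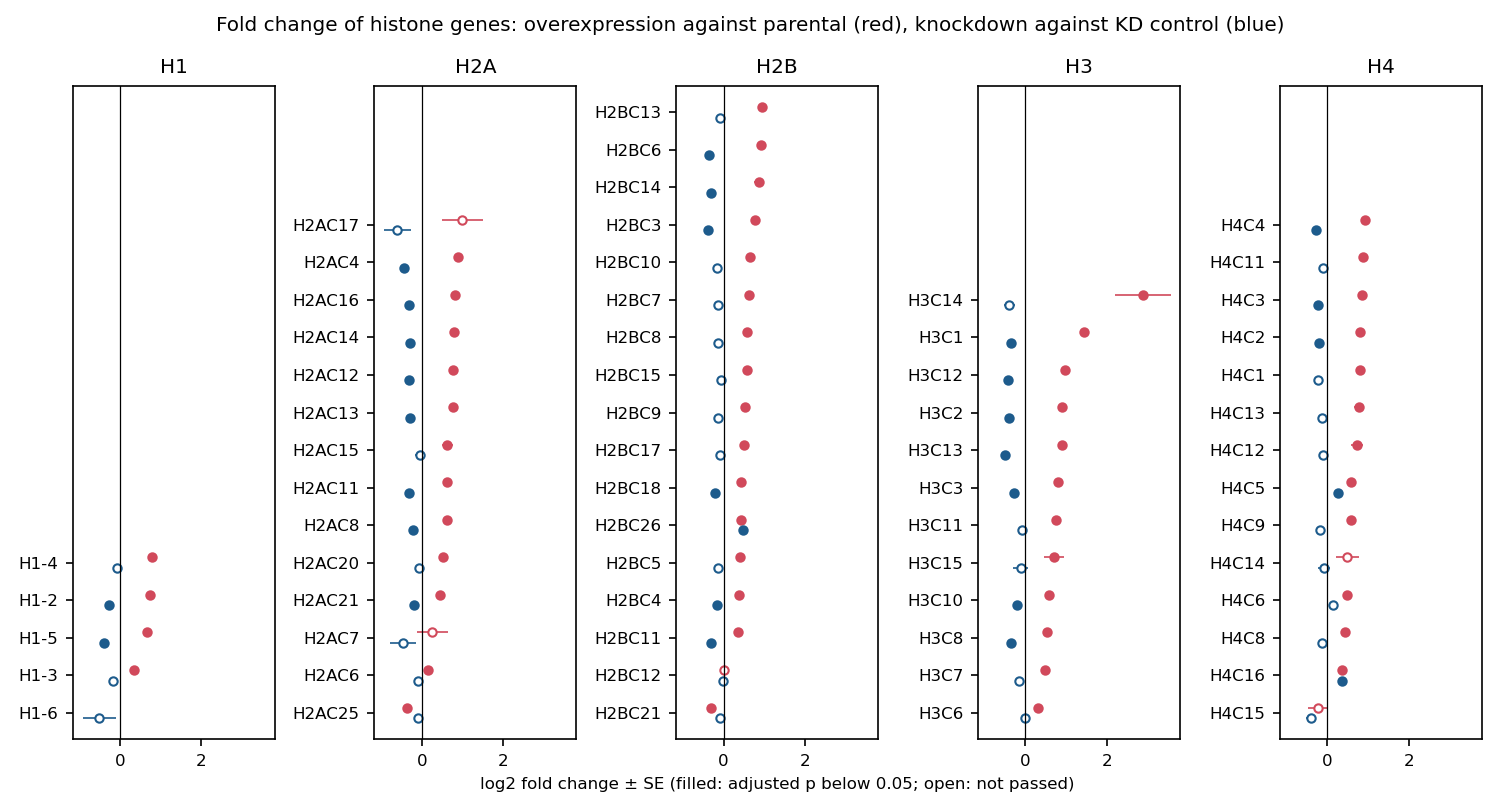
Log2 fold change with its standard error of every histone gene tested, overexpression against parental in red and knockdown against KD control in blue; filled points have an adjusted p below 0.05. Red points lie right of 0 for 58 of 61 genes and blue points left of 0 for 58 of 62 genes.

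Whether the effects differed was tested as an interaction, with all 8 libraries in the fit. Of 62 members tested, 53 had a higher effect of overexpression than of knockdown and 2 a lower one at an adjusted p below 0.05 (edgeR), against 24.6% and 24.4% of the 22619 genes tested. The median difference was 0.81 on the log2 scale, against 0.06 over all genes. The lower pair were H2BC21 (-0.22 ± 0.0798, adjusted p = 0.031) and H2AC25 (-0.28 ± 0.0876, adjusted p = 0.0164), but this lower count was 0 without ZMYND8 overexpression replicate 2, without KD control replicate 2 or with upper quartile scaling, and 1 without either parental replicate, KD control replicate 1 or ZMYND8 KD replicate 2. H3C1 had a difference of 1.78 ± 0.0831 (adjusted p = 1.94e-10). In 26 members the tests passed in opposite directions, higher under overexpression and lower under knockdown, as they did in 3.9% of the 18504 genes tested in both. These are all of the members that fell under knockdown, and their number was 13 without KD control replicate 2 and 16 with no filter on low counts.

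The medians also differed by cluster under overexpression. At 6p22, 46 of 49 genes tested rose and 0 fell under overexpression, with a median log2 fold change of 0.66. At 1q21, 6 of 9 rose and 1 fell, with a median of 0.49. Under knockdown 23 of 50 genes fell at 6p22 (median -0.20) and 3 of 9 at 1q21 (median -0.19). The 1q42 pair, H2AC25 and H2BC26 (chr1:228458107-228460470, plus strand), lie next to each other and point away from each other. Under overexpression H2AC25 fell while H2BC26 rose by 0.42 ± 0.0807 on the log2 scale (adjusted p = 0.00101), and under knockdown H2AC25 was at -0.09 and H2BC26 rose. Whether the clusters differ was not tested, since genes of a cluster share sequence and are not replicates.

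The gene models also differ in where they end. In 35 genes the model ends within 11 bases of the stem-loop, as the processed histone mRNA does, and in 23 it runs more than 100 bases past it and so also counts RNA beyond that end. These limits were chosen after the values were seen, and the split is a description. Under overexpression the median log2 fold change was 0.78 in the 29 genes tested of the first kind and 0.49 in the 23 of the second. Under knockdown the medians were -0.28 over 30 genes and -0.13 over 23. Of the genes that rose under knockdown and those that fell under overexpression, all 5 (H2BC26, H4C16, H4C5, H2BC21 and H2AC25) had a model that runs past the stem-loop. At 6p22 alone, the overexpression medians were 0.78 over 26 genes and 0.55 over 14. By stem-loop sequence, the 38 genes with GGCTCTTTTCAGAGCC had medians of 0.74 under overexpression and -0.27 under knockdown over those tested, and the 9 with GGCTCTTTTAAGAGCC had 0.41 and -0.17. Among H4 genes the 10 with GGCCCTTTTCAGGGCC had 0.79 and -0.13, and the 4 with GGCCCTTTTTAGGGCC 0.54 and -0.13. The kind of model goes with class, since 11 of 18 H2B genes but none of the H1 genes run past the stem-loop, and how much of the difference comes from the RNA beyond it was not tested.

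**Figure D4:**
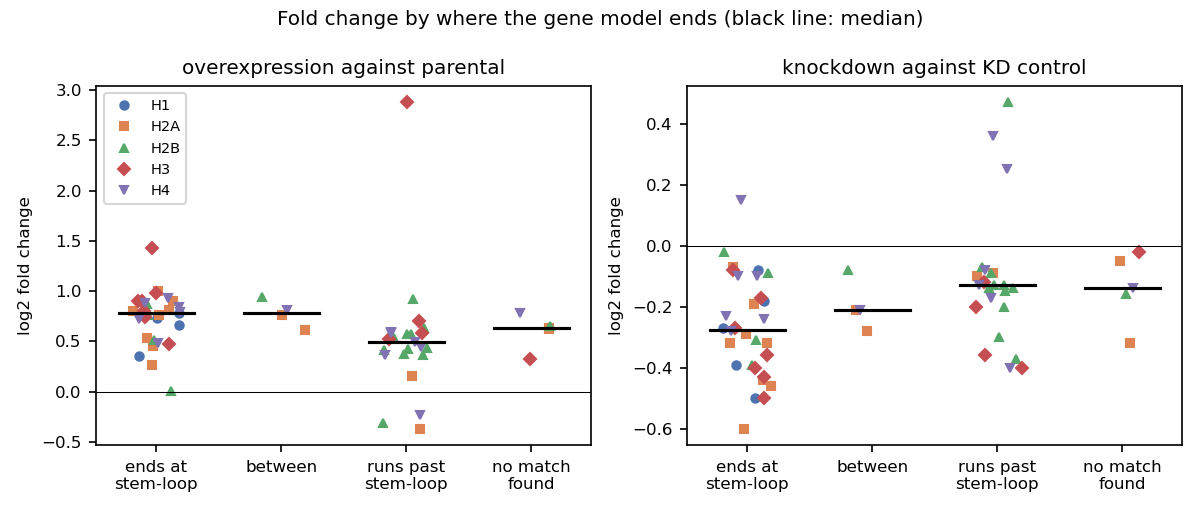
Log2 fold change of the histone genes by where their gene model ends, for both comparisons; symbols mark the class, black lines the median. Genes whose model ends at the stem-loop have a median of 0.78 under overexpression and -0.28 under knockdown, against 0.49 and -0.13 where it runs past.

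The factors that make histone mRNA had medians near 0 in both comparisons. Of 15 genes for histone mRNA transcription and 3′ end processing, 3 rose and 4 fell under overexpression (median 0.00), and 1 rose and 3 fell under knockdown (median -0.05). SLBP fell by 0.24 on the log2 scale under overexpression (adjusted p = 0.00371), from 62.0 and 62.8 to 54.6 and 50.1 CPM, and was at -0.05 under knockdown. NPAT was at 0.02 (adjusted p = 0.722) and -0.14 (adjusted p = 0.0936), and CASP8AP2, which resides in the same bodies as NPAT, was at 0.04 and fell by 0.19. With the correction for gene length and GC content, however, NPAT was at 0.22 (adjusted p = 0.00332) and CASP8AP2 at 0.21 (adjusted p = 0.0144) under overexpression, and both passed. HINFP, the factor of H4 promoters, rose by 0.26 and was at -0.14 under knockdown. LSM10 fell by 0.28 under overexpression, where it was at -0.48 with that correction. Under knockdown LSM10 was at 0.23 (edgeR, adjusted p = 0.051), and passed with the correction at 0.26 (adjusted p = 0.036). LSM11 was at -0.02 under overexpression and -0.05 under knockdown. A pair of these genes passed in the same directions as the histone genes in both comparisons. ERI1, the exonuclease that trims and degrades histone mRNA ends, rose by 0.34 under overexpression and fell by 0.30 under knockdown. ZNF473, a zinc finger protein of the U7 complex, rose by 0.36 and fell by 0.26. CPSF2, a subunit of the cleavage complex, passed the other way, falling by 0.35 and rising by 0.17. With the correction CPSF2 was at 0.12 under knockdown and did not pass (edgeR, adjusted p = 0.105). HINFP did not pass by DESeq2 or with the correction, and CASP8AP2, ERI1 and CPSF2 did not pass under knockdown without KD control replicate 2.

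Replication-independent and variant histones, most of whose mRNAs carry a poly(A) tail, moved in part. Of 11 variants, 6 rose and 3 fell under overexpression (median 0.19), and 1 rose and 3 fell under knockdown (median -0.06). H1-10 rose by 1.30 ± 0.0503 on the log2 scale under overexpression (adjusted p = 5.63e-09), from 65.0 and 61.4 to 153.7 and 154.5 CPM. With the correction for gene length and GC content it was at 0.63. H2AJ fell by 0.62. H3-3A, a gene of variant H3.3, rose by 0.26 and H3-3B, the other, fell by 0.20; under knockdown H3-3A rose by 0.15 and H3-3B was at -0.10. H2AX was at -0.05 and -0.15, but with the correction it was at -0.59 under overexpression (adjusted p = 3.16e-05). The correction also moved H3-3A, to 0.49. H2AZ1 fell by 0.13 under overexpression, where its adjusted p was 0.0436 and did not pass without ZMYND8 overexpression replicate 2 or parental replicate 2, and was at 0.18 under knockdown. CENPA, the centromere variant, fell by 0.39 under knockdown. The calls of CENPA and H3-3A were lost under knockdown without KD control replicate 2. Of 16 histone chaperone genes, 5 rose and 5 fell under overexpression and 4 rose and 1 fell under knockdown, with RBBP4 (0.28) and RBBP7 (-0.36) at the ends of those that passed under overexpression and ASF1A (0.37) and CHAF1B (-0.26) under knockdown.

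S phase genes had medians of the same sign as the histone genes and nearer to 0. Of 24, 12 rose and 4 fell under overexpression (median 0.15), and 1 rose and 8 fell under knockdown (median -0.14). PCNA, the sliding clamp of replication, was at 0.11 (adjusted p = 0.109) and -0.13 (adjusted p = 0.14), and passed under overexpression with the correction (0.30, adjusted p = 0.000823), with upper quartile scaling and without ZMYND8 overexpression replicate 2. E2F2 rose by 1.11 and CCNA2, the cyclin of S phase, fell by 0.57 under overexpression, where CCNA2 was at -0.30 with the correction. CCNE1, the cyclin of S phase entry, rose by 0.42 under knockdown. Of 15 genes of G2 and mitosis, 0 rose and 13 fell under overexpression (edgeR, median -0.29), with CENPF at -0.75 and CDC20 at -0.19, and 0 rose and 2 fell under knockdown, MKI67 by 0.36 and CDK1 by 0.33. With the correction 8 of the 15 fell under overexpression, with a median of -0.16. CDC20 was at -0.41 with it, and did not pass with upper quartile scaling or without ZMYND8 overexpression replicate 2 or parental replicate 2, and neither CDK1 nor CCNE1 passed under knockdown without KD control replicate 2. MKI67 was at 0.05 under overexpression. Of 10 CDK inhibitor and RB family genes, 2 rose and 7 fell under overexpression, with CDKN1C at 1.83 (1.17 with the correction) and CDKN2B at -3.51. Of the 9 tested under knockdown, 0 rose and 3 fell, CDKN2B by 0.50, CDKN1A by 0.23 and RB1 by 0.16, the last of which was lost when any 1 of the 4 libraries was left out. The part of the cell cycle in the histone values was not tested.

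**Figure D5:**
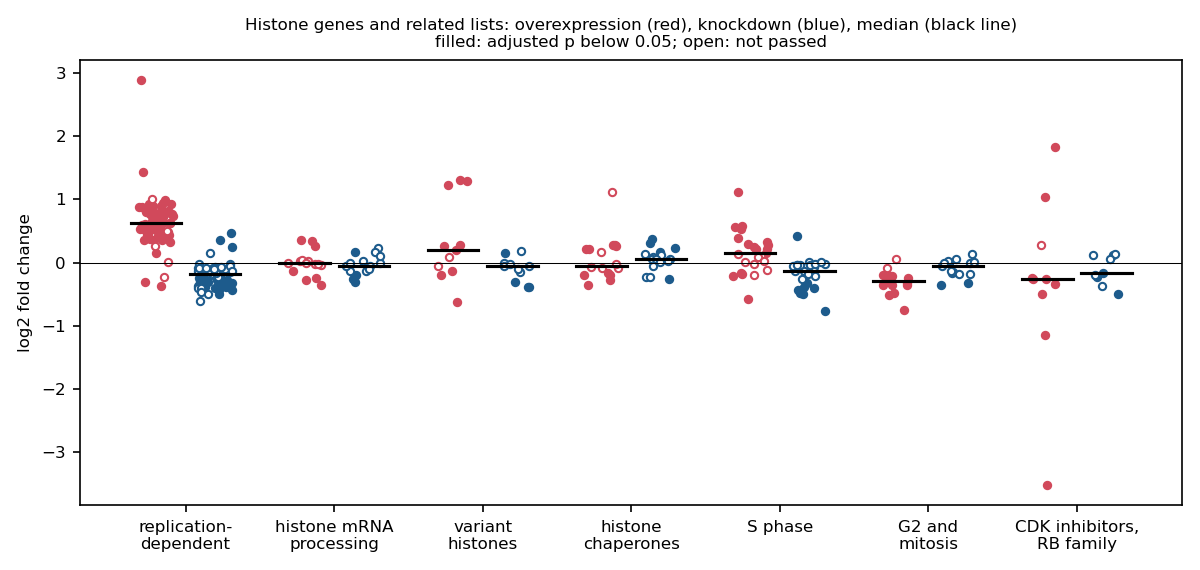
Log2 fold change of the histone genes and of 6 related lists under overexpression (red) and knockdown (blue); filled points have an adjusted p below 0.05 and black lines are medians. The histone genes have medians of 0.63 and -0.19, the S phase genes 0.15 and -0.14, and the genes of G2 and mitosis -0.29 and -0.05.

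Neuroblastoma cells take an adrenergic or a mesenchymal state, and markers of both moved in the same comparisons. Of 9 adrenergic markers tested of 10, all 9 rose under overexpression, ISL1 by 0.41 and HAND2 by 1.82 on the log2 scale among them, and their summed level went from 329.3 to 332.5 CPM in parental to 1128 to 1186 CPM in overexpressing libraries. Of 8 mesenchymal markers, 1 rose (TWIST1 at 1.31) and 7 fell (CD44 at -2.55), and their sum went from 9596 to 10123 CPM to 3388 to 3591 CPM. With the correction for gene length and GC content, 8 rather than 9 adrenergic markers rose, with PHOX2A at 0.09 rather than 0.63. Under that correction 6 rather than 7 mesenchymal markers fell, with SNAI2 at -0.21 rather than -0.49. Under knockdown 4 of 8 adrenergic markers fell, from DBH at -0.86 to HAND2 at -0.25 (HAND2 was lost without KD control replicate 2), with sums of 739.3 to 779.3 CPM in KD control and 578.9 to 646.6 CPM in ZMYND8 KD libraries. Of the mesenchymal markers 4 rose (YAP1 at 0.55) and 2 fell (PRRX1 at -0.98) under knockdown, with sums of 4675 to 4823 CPM and 5863 to 6228 CPM. The part of these markers in the histone values was not tested.

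RN7SL1, the RNA of the signal recognition particle, has no poly(A) tail and bears on how well such RNAs were captured. It stood at 14401 and 11094 CPM in parental, 14919 and 10846 in overexpressing, 16845 and 13695 in KD control and 18463 and 18209 in ZMYND8 KD libraries, so that the libraries of a group differed by more than they did for the histone sums in all groups but ZMYND8 KD. Its log2 fold change was 0.03 (adjusted p = 0.89) under overexpression, and it rose by 0.27 (adjusted p = 0.0449) under knockdown, where 26 of 62 histone genes fell; that call was lost without KD control replicate 2 and by DESeq2. RN7SL2, RN7SK, RMRP and RPPH1, the other 4 listed RNAs of this kind, are listed at 0 in all 8 libraries although every cell uses them, so their counts do not give their levels, and RN7SL1 is a limited gauge of capture.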

How the data were processed

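Samples were grouped by their labels into 4 groups of 2 libraries. The authors deposited counts, whole numbers of read pairs per gene without normalization, after trimming with Trim_Galore, alignment to GRCh38 with Hisat2 and counting with featureCounts on GENCODE; the strand setting and the treatment of reads with several matches are not given in the sources used here. Overlapping genes and near-identical copies are therefore uncertain: 6 members share 20% or more of their exon bases with another gene, and 11 have at least 50% of their 31-base sequences elsewhere. Of 60662 lines, 3 belong to 1 split gene and were left out. Symbols were taken from GENCODE release 44 (60462 of 60659 identifiers matched), and coordinates from the count table. No pair of replicates agreed within counting noise (chi-square per degree of freedom 6.08 to 8.93).

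Counts were filtered with filterByExpr, scaled by TMM, and fitted by the quasi-likelihood method of edgeR 4.0.16 with two-sided tests ( limma 3.58.1, R 4.3.3), with Benjamini-Hochberg adjustment over all genes tested; the difference of effects was tested over all 8 libraries. For a call, the log2 fold change also had to be 1 or more in size and the mean normalized count above 20. The fits were tested on simulated data. Alternatives were RLE and upper quartile scaling, DESeq2 1.42.0, no filter, another mean threshold, a joint fit of the 8 libraries, a replicate block, offsets for GC content and gene length, members with few repeated sequences, and leaving out each library. Named are the 3 members of each class with the highest level per kb, the 3 largest increases and decreases per comparison, up to 5 members with effects of opposite sign, the ends of each list and fixed regulators; others were named after their values were seen. The members and lists were chosen with earlier results of these data known.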

Additional observations from a re-analysis of the deposited data

Results flagged for a closer look

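The effects of overexpression and knockdown differed, by the test of the difference over all 8 libraries, in 53 members with a higher effect of overexpression and 2 with a lower one. Among members whose fitted effects had opposite signs, the differences that passed and were largest in size were those of H3C14 (3.26 on the log2 scale), H3C1 (1.78), H2AC17 (1.59), H3C12 (1.40) and H3C13 (1.40). H3C14 rests mostly on ZMYND8 overexpression replicate 2, without which its difference was 1.64. The gene model of H2AC17 shares 71% of its exon bases with another gene on the same strand. H2AC17 had 6 to 38 counts per library, neither of its effects passed alone, and its difference, at an adjusted p of 0.042 (edgeR), did not pass by DESeq2, with a replicate block, with no filter on low counts or without any 1 of 7 of the 8 libraries.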

How the results depend on the processing

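With 2 libraries per group, each value rests on few libraries, and for genes of few counts or with near-identical copies depth and mapping limit what can be said. Under overexpression 52 to 54 members rose in every setting that tested all members, and 46 of the 50 with under 50% of their 31-base sequences elsewhere; 2 fell in each. The median log2 fold change of the members was 0.70 with upper quartile scaling, where the median of all genes was 0.11, and 0.54 to 0.70 when 1 library was left out. The members called higher numbered 5 with upper quartile scaling, 1 among genes with few repeated sequences, 1 with a mean above 100 required, and 2 to 5 when 1 library was left out. Under knockdown 16 members fell with no filter on low counts, 14 to 31 fell when 1 library was left out, 31 with upper quartile scaling and 24 by DESeq2. For the difference of effects, 48 to 53 members were higher in the settings that tested all members, 0 were lower with upper quartile scaling and 0 to 2 when 1 library was left out. With the correction for gene length and GC content the members had medians of 0.68 and -0.18, and 53 rose under overexpression; the lists named beside them moved more, with 6 rather than 3 genes rising and 6 rather than 4 falling among the processing factors under overexpression. The causes were not tested.

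Over all genes kept by the filter, same-numbered libraries deviated together only weakly. The correlation of their deviations was 0.0532 for overexpression and 0.0952 for knockdown, with 2 pairs each. Being taken over all genes, it does not tell whether the libraries pair in the histone genes. With the replicate number as a block, 54 members rose under overexpression and 37 rather than 26 fell under knockdown. With the block and the correction for GC content and length together, 37 fell as well.

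Of 1512 values of single genes under alternatives, 1366 kept their direction and side of the threshold, 85 lost and 35 gained significance, and 26 changed sign; none of the last belonged to the 96 results past the threshold, 24 of which lost it under at least 1 alternative. The sign changes under overexpression were in H2AX (0.03 with upper quartile scaling, -0.16 to 0.06 with 1 library left out), H2BC12 (-0.00 by DESeq2 and with GC correction and block, -0.06 to 0.08), LSM11 (0.00 with GC correction, with or without block, 0.05 with upper quartile scaling, -0.12 to 0.08), MKI67 (-0.08 with GC correction, with or without block, -0.04 to 0.14), CASP8AP2 (-0.03 to 0.10) and NPAT (-0.01 to 0.04). Under knockdown LSM11 ranged from -0.15 to 0.05 with 1 library left out. The difference of effects of H2BC12 was -0.03 by DESeq2 and RLE scaling, -0.05 with no filter, and -0.04 to 0.10 with 1 library left out.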
